A study of Homo sapiens with 4 samples.

Results

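The miR-17-92 and miR-106b-25 clusters were examined by small RNA sequencing in cells whose RNA polymerase II (Pol II) had lost the threonine at the fourth position of its C-terminal domain (CTD) repeats. The clusters hold 9 of the 7062 small RNA features listed in the deposited tables. These are the 6 miRNA genes MIR17, MIR18A, MIR19A, MIR20A, MIR19B1 and MIR92A1 of the host transcript MIR17HG, and the 3 miRNA genes MIR106B, MIR93 and MIR25 inside MCM7. Members were taken by gene symbol: 3 carried the symbol under their Ensembl identifier, and the 6 of MIR17HG lay at exactly the position of the RefSeq gene of that name. All 9 had enough counts to be tested, and together they took 4.52% and 4.64% of all counts under 52X T4A, compared with 4.96% and 6.34% under 52X WT.

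HEK293T cells, a line from human embryonic kidney, were transiently transfected with 1.5 µg of plasmid per well for a CTD of 52 heptad repeats, either wild type (52X WT) or T4A, in which alanine takes the place of threonine at position 4. From the day after transfection both groups were kept for 72 h in α-amanitin at 2.5 µg/ml, a toxin that blocks Pol II and, per the labels, had eliminated untransfected cells by that time. Each group had 2 libraries, described in the labels as biological replicates, and no library without transfection or toxin was analysed here, so that every value is from cells that survived selection on an introduced CTD. The tables held between 16180790 and 27370127 counts per library. Markers of other cell types were looked up as a check of identity: the summed level of 13 liver, muscle, blood and neuron miRNA genes in CPM (counts scaled to a common library size) was 103 and 91.1 in 52X T4A, more than the 43.9 and 41.6 of 52X WT. Most of this came from muscle miRNA genes, chiefly MIR1-1 and MIR1-2, at 96.5 and 81.6 CPM against 30.5 and 33.1 CPM, while MIR144 was at 0 in 1 library of each group. The muscle markers thus moved with the groups, and their part in the results that follow was not tested. MIR1-1 and MIR1-2 had nearly equal counts in each library, such as 738 and 740 in 52X T4A replicate 1. The same held for MIR124-1, MIR124-2 and MIR124-3, so these sums may hold the same reads more than once.

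A cluster of this kind is transcribed by Pol II as 1 long primary transcript. The Drosha and DGCR8 complex cuts each hairpin out of it, Dicer trims the hairpin to a short duplex, and a single strand, the mature miRNA, is loaded into Argonaute, where bases 2 to 8 (the seed) pair with target messages. Members of a cluster therefore start from the same transcript but can end at different levels. The miR-17-92 cluster is activated by MYC and E2F factors and is known for driving proliferation and blocking apoptosis in lymphoma and in development, and miR-106b-25 is its relative within the gene of a replicative helicase subunit.

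On GRCh38 the miR-17-92 genes lie on the plus strand within 787 bases, from MIR17 at chr13:91350605-91350688 to MIR92A1 at chr13:91351314-91351391, inside the RefSeq span of MIR17HG (chr13:91347687-91354577). Their sequences fell in an exon of 3 and in an intron of 8 of the 11 GENCODE transcripts of MIR17HG that span them. The miR-106b-25 genes lie on the minus strand within 515 bases, in the order MIR106B (chr7:100093993-100094074), MIR93 (chr7:100093768-100093847) and MIR25 (chr7:100093560-100093643), inside the RefSeq span of MCM7 (chr7:100092728-100101397). MIR106B and MIR25 were intronic in all 9 spanning transcripts of MCM7. MIR93 was intronic in 8, and an exon of the ninth reached partly into it.

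The main mature miRNAs of the 9 genes fall into 4 seed groups, and these groups cut across the clusters. They are shown here, 5′ to 3′ from RefSeq (GRCh38.p14), with the seed in capitals, because likeness between them decides which levels can be told apart. The first group has members in both clusters:
miR-17-5p (MIR17): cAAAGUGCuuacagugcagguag
miR-20a-5p (MIR20A): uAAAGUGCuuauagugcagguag
miR-106b-5p (MIR106B): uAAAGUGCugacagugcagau
miR-93-5p (MIR93): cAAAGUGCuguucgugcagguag
The miR-18 and miR-19 groups are found in miR-17-92 alone of these clusters:
miR-18a-5p (MIR18A): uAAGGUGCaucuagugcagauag
miR-19a-3p (MIR19A): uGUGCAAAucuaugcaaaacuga
miR-19b-3p (MIR19B1): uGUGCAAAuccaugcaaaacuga
The last group ends each cluster:
miR-92a-3p (MIR92A1): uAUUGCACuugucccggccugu
miR-25-3p (MIR25): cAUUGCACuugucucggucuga
Counted from 1 at the 5′ end, miR-17-5p and miR-20a-5p differ at 2 of 23 positions (C1U and C12U), miR-19a-3p and miR-19b-3p at 1 of 23 (U11C), and miR-92a-3p and miR-25-3p at 4 of 22 (U1C, C14U, C18U and U22A).

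A further relative of miR-17-92, miR-106a-363, lies on chromosome X (chrX:134169378-134170278, minus strand) and makes some of the same mature miRNAs. The hairpins of MIR92A1 and MIR92A2 are given as the clearest case, with the shared mature miRNA in capitals:
MIR92A1 (chr13:91351314-91351391, plus strand): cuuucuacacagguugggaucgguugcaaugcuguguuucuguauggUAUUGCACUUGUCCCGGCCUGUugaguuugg
MIR92A2 (chrX:134169538-134169612, minus strand): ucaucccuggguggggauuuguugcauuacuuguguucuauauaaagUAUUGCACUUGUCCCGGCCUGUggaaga
The hairpins differ outside the mature miRNA, but a read of the mature miRNA matches both. Their counts were all but equal: MIR92A2 had between 99.8% and 99.9% of the counts of MIR92A1 over the 4 libraries. MIR19B2 had between 97.7% and 101% of those of MIR19B1, whose miR-19b-3p is also the same in both. The levels given for MIR92A1 and MIR19B1 are therefore levels of miR-92a and miR-19b from either locus, and cannot be assigned to chromosome 13.

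Near-identical pairs also kept a steady proportion. The X-linked relatives of the remaining miR-17-92 genes, with the seed in capitals, are:
miR-106a-5p (MIR106A): aAAAGUGCuuacagugcagguag
miR-18b-5p (MIR18B): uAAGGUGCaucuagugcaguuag
miR-20b-5p (MIR20B): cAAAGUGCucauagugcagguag
MIR106A, whose mature miRNA differs from miR-17-5p by C1A alone, had between 88.3% and 89.1% of the counts of MIR17. MIR18B, which differs from miR-18a-5p by A20U, had between 59.1% and 66.8% of those of MIR18A. MIR20B, with 2 differences (U1C and U10C), had between 2.6% and 3.08% of those of MIR20A. How reads matching several loci were handled is not given in the sources used here, so MIR17 and MIR18A may share reads with the X-linked copies, whereas little of MIR20A can be shared with MIR20B.

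**Figure D1:**
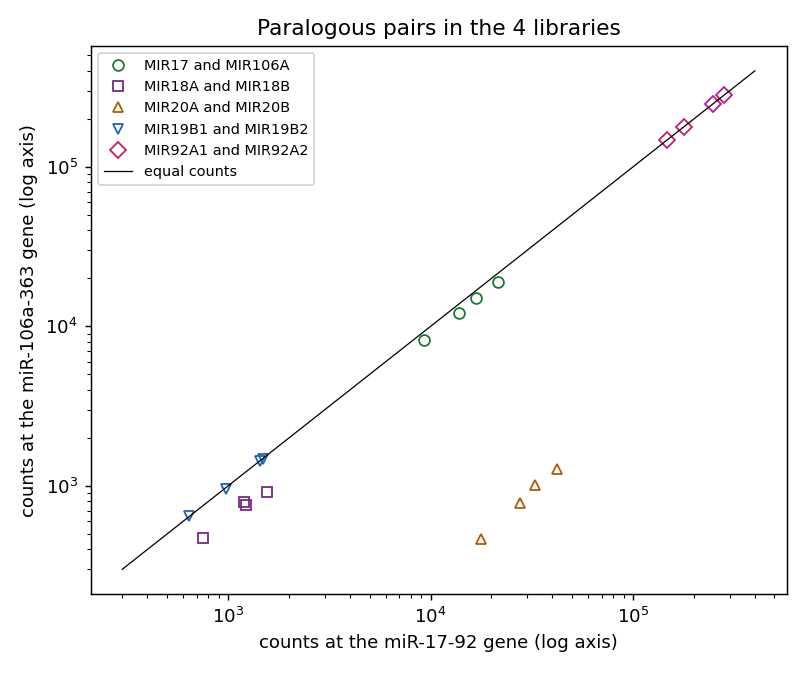
Counts at 5 miR-17-92 genes (x axis, log scale) against counts at their relatives in the miR-106a-363 cluster (y axis, log scale), 1 point per library, with a line at equal counts. The MIR92A and MIR19B pairs lie on the line, the MIR17 and MIR18A pairs lie below it at a steady distance, and MIR20B lies far below it at 2.6% to 3.08% of MIR20A.

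Reads differed far more between the members than between the groups. Whether different miRNA sequences are turned into reads equally well was not tested, so the order given here is one of reads. To set genes side by side, CPM were divided by the listed feature length in kilobases, and a feature counts both arms of its hairpin. The main mature miRNAs are 21 to 23 bases long, so reads need not grow with feature length. Without the division MIR19A, at a mean of 64.0 CPM, stood above MIR18A, at 61.1 CPM, and the other ranks were the same. MIR25 was highest, at 285958 ± 41756 CPM per kilobase in 52X T4A, against 391483 ± 80528 for 52X WT (means with SD, n = 2 throughout). MIR92A1 followed at 116656 ± 2991 and 163085 ± 8041 CPM per kilobase, then MIR106B at 65920.1 ± 5453 and 87318 ± 11728. Thus the top 3 places were shared by both clusters, and the 2 genes with the AUUGCAC seed stood first and second.

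MIR93 was next at 33574 ± 2688 CPM per kilobase in 52X T4A, against 49353 ± 9062 for 52X WT, MIR20A at 17310.5 ± 2149 and 26242 ± 7761, and MIR17 at 7553 ± 769 and 11222 ± 3552. A gap of more than 9-fold then separated MIR17 from the last 3 genes in each library. MIR18A was at 683 ± 15.1 and 1037 ± 163 CPM per kilobase, MIR19A at 557 ± 10.3 and 1004 ± 314, and MIR19B1 at 502 ± 53.6 and 865 ± 380.1. Over the 4 libraries the ranges of neighbours in this order overlapped for MIR93 and MIR20A, for MIR18A and MIR19A and for MIR19A and MIR19B1, and for no other neighbouring pair. MIR18A and MIR19A changed places in 52X WT replicate 1, and were the only neighbours to do so in any library. Within miR-17-92 the highest gene exceeded the lowest by between 139-fold and 283-fold per kilobase in a library, against between 6-fold and 10.4-fold within miR-106b-25.

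**Figure D2:**
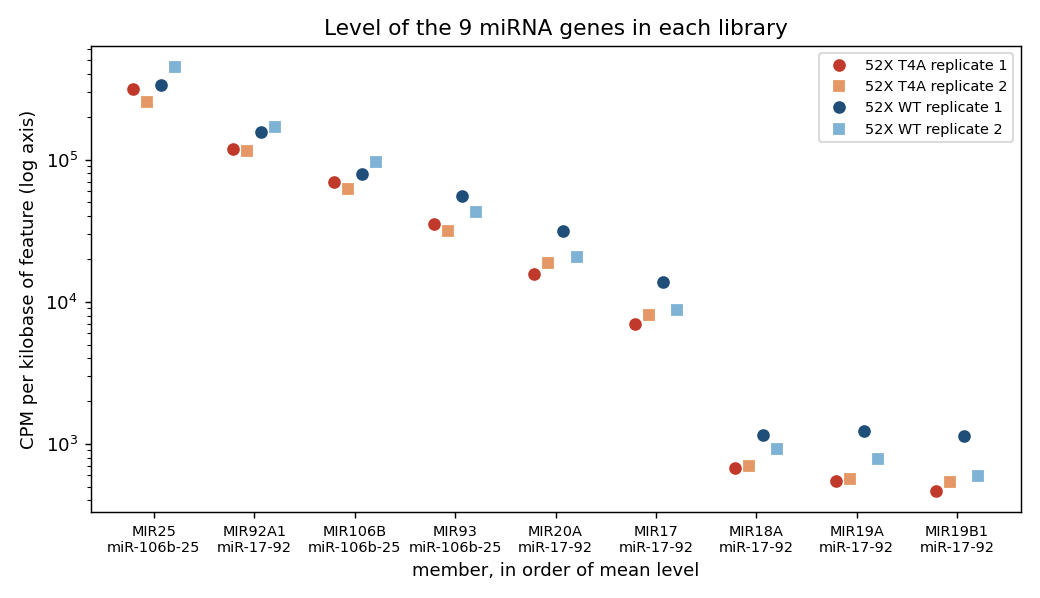
Level of each of the 9 genes in CPM per kilobase of feature length (y axis, log scale), in order of the mean level, with 1 point per library. MIR25 and MIR92A1 lead, MIR18A, MIR19A and MIR19B1 lie more than 9-fold below MIR17, and both 52X T4A points lie below both 52X WT points for every gene.

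The comparison of 52X T4A with 52X WT asks how these levels differ when threonine 4 of the repeats cannot be phosphorylated. All 9 genes had a fitted change below 0, as had 53.9% of all features tested, with log2 fold changes from −0.85 for MIR19A to −0.41 for MIR106B and a median of −0.57, where the median of all 1480 features tested was −0.05. None of the 9 passed the test, which was edgeR's quasi-likelihood test at a Benjamini-Hochberg adjusted p under 0.05 and a fold change over 1.5. Their smallest adjusted p was 0.419. This rule called 0.135% of all features tested, 0.0676% higher and 0.0676% lower. At an unadjusted p under 0.05 there were 4 members, MIR19A, MIR20A, MIR92A1 and MIR93, all lower, where 6.28% of all features were lower at that p. In CPM scaled with TMM factors (trimmed mean of M values) the libraries of the groups did not overlap for any of the 9 genes, each lower in 52X T4A, where 21.2% of all features showed this and 40.1% did not overlap in either direction. Members of a cluster share a transcript, and so the 9 are not independent observations. Fewer cells that express a miRNA and less of it per cell cannot be told apart in such libraries.

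The absence of overlap depended on the scaling, although the direction of the fitted change did not. It held for 9 members with RLE factors (20.1% of all features), for 8 with TMM factors from miRNAs alone (19.3%), for 6 with upper quartile factors (15.1%) and for 4 with library size alone (13.2%). With library size alone the libraries of MIR17, MIR20A, MIR19B1, MIR106B and MIR25 overlapped. The log2 fold changes then ran from −0.66 for MIR19A to −0.24 for MIR106B, while the median of all features tested was 0.14.

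The 4 genes with the AAAGUGC seed, whose miRNAs repress cell cycle brakes such as CDKN1A as well as E2F factors, were followed first. MIR20A was at 1121 and 1337 CPM in 52X T4A, and at 2253 and 1474 CPM in 52X WT. This gave a log2 fold change of −0.60 ± 0.25 (SE, standard error; edgeR, adjusted p 0.456). MIR17 was at 589 and 680.1 CPM in 52X T4A and at 1154 and 732 CPM in 52X WT, and its log2 fold change was −0.57 ± 0.26 (SE; edgeR, adjusted p 0.467). For both genes 52X WT replicate 1 was well above the other 3 libraries, and 52X WT replicate 2 was only slightly above the higher 52X T4A library. In each library MIR17 stayed close to a fixed proportion of MIR20A: the log2 ratio of their counts ran from −1.01 to −0.93, the narrowest range of the 4 pairs of genes compared in this way.

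MIR93 was at 2838 and 2534 CPM in 52X T4A and at 4461 and 3436 CPM in 52X WT. Its log2 fold change was −0.56 ± 0.21 (SE; edgeR, adjusted p 0.421), with a 95% interval from −1.03 to −0.08. MIR106B was at 5722 and 5089 CPM against 6480.0 and 7840.1 CPM, a log2 fold change of −0.41 ± 0.20 (SE; edgeR, adjusted p 0.467). Although they sit side by side in MCM7 and share a seed, 52X WT replicate 1 was the highest library for MIR93 and the second replicate for MIR106B. The summed level of the 4 genes was 10270.0 and 9640.2 CPM for 52X T4A, below 14347 and 13481 CPM for 52X WT, so that the sum was more even within groups than the single genes were.

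The miR-18 and miR-19 genes were the lowest in level and had the widest intervals. MIR19A, which with MIR19B1 makes the miR-19 miRNAs, was at 45.0 and 46.2 CPM in 52X T4A and at 101 and 64.2 CPM in 52X WT. Its log2 fold change of −0.85 ± 0.31 (SE; edgeR, adjusted p 0.419) was the lowest of the 9, with a 95% interval from −1.55 to −0.15. MIR19B1 was at 40.4 and 47.0 CPM against 98.6 and 51.8 CPM, at −0.78 ± 0.35 (SE; edgeR, adjusted p 0.467). The 52X WT libraries of MIR19B1 were farther apart, by 0.93 on the log2 scale, than its groups, by 0.72. MIR18A was at 47.8 and 49.3 CPM in 52X T4A and at 81.8 and 65.4 CPM in 52X WT, at −0.60 ± 0.28 (SE; edgeR, adjusted p 0.467). The 52X T4A libraries were within 0.05 of each other on the log2 scale for MIR18A and MIR19A, closer than their 52X WT libraries, which were 0.32 and 0.65 apart.

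The genes with the AUUGCAC seed held most of the reads of their clusters. MIR92A1 was at 9264 and 8934 CPM in 52X T4A and at 12277 and 13164 CPM in 52X WT. It had the smallest spread within groups compared with the distance between them, with a log2 fold change of −0.48 ± 0.18 (SE; edgeR, adjusted p 0.421) and a 95% interval from −0.90 to −0.07. MIR25, whose miRNA represses the apoptosis factor BIM, was at 26501 and 21540.3 CPM in 52X T4A and at 28101 and 37668 CPM in 52X WT, at −0.45 ± 0.21 (SE; edgeR, adjusted p 0.467). The lower 52X WT library of MIR25 lay close above its higher 52X T4A library. The 95% interval of MIR25, from −0.93 to 0.03, spans 0.

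**Figure D3:**
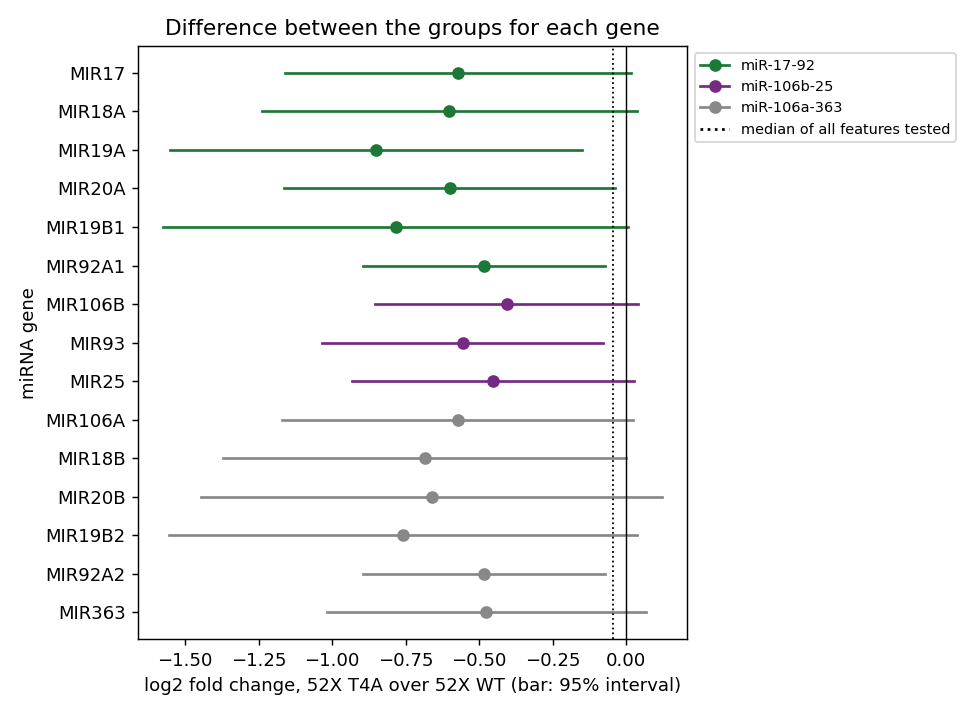
Log2 fold change of 52X T4A over 52X WT (x axis; points, with bars for the 95% interval) for the 9 genes and the 6 genes of miR-106a-363, with lines at 0 and at the median of all features tested (−0.05). All 15 points lie below 0, from −0.85 to −0.41, and many intervals reach 0.

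Summed over a cluster, miR-17-92 had 11107 and 11094 CPM under 52X T4A, compared with 15965 and 15551 CPM under 52X WT, a change in the mean of −29.6%. These sums were mostly MIR92A1, whose counts cannot be assigned to chromosome 13, and lay close together within each group. The miR-106b-25 cluster had 35060.0 and 29163 CPM in 52X T4A against 39042 and 48943 CPM in 52X WT, a change in the mean of −27.0%. The 52X WT libraries were much farther apart for miR-106b-25 (SD 7001 CPM) than for miR-17-92 (SD 293 CPM), and the sums were not tested.

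The replicates were then compared with the groups, gene by gene. The distance between group means of log2 CPM exceeded the distance between replicates of either group for 6 genes, namely MIR18A, MIR19A, MIR92A1, MIR106B, MIR93 and MIR25. For MIR17, MIR20A and MIR19B1 the 52X WT replicates were farther apart than the groups. The 6 genes MIR17, MIR18A, MIR19A, MIR20A, MIR19B1 and MIR93 were highest in 52X WT replicate 1, whereas the second replicate was highest for MIR92A1, MIR106B and MIR25. This division did not follow the clusters: MIR92A1 parted from its 5 neighbours and MIR93 from its 2. As the counts of MIR92A1 cannot be assigned to chromosome 13, its parting need not be that of the locus there.

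**Figure D4:**
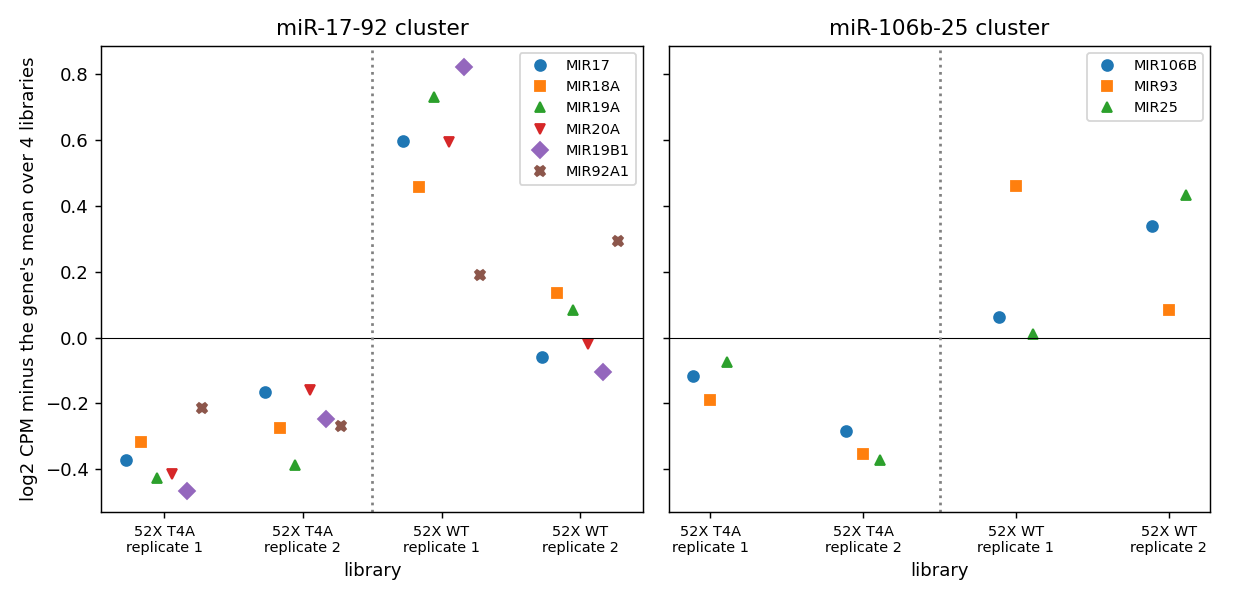
Log2 CPM of each gene minus its mean over the 4 libraries (y axis), by library (x axis), for miR-17-92 (left) and miR-106b-25 (right). The 52X T4A libraries lie below 0 for all genes, MIR19B1 reaches 0.82 in 52X WT replicate 1, and MIR92A1, MIR106B and MIR25 peak in 52X WT replicate 2.

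The values were then refitted with each library left out. All 9 log2 fold changes stayed below 0 whichever library was left out. Without 52X WT replicate 1 they shrank for MIR17, MIR20A, MIR19A and MIR19B1, to −0.30, −0.35, −0.58 and −0.34. MIR18A and MIR93 shrank less, to −0.52 and −0.45. The values of MIR92A1, MIR106B and MIR25 were farther below 0, at −0.63, −0.64 and −0.75. No member was called in that fit. Without 52X WT replicate 2 the 4 genes MIR17, MIR20A, MIR19A and MIR19B1 were called, at −0.86, −0.87, −1.14 and −1.17 (edgeR, adjusted p of 0.0449, 0.0471, 0.005 and 0.00371). In that fit the number of called features went from 2 to 218 over the whole table, and the lone 52X WT library was assumed to vary like the 52X T4A pair. In the same fit MIR106B and MIR25 were nearer to 0, at −0.26 and −0.22, and MIR25 was at −0.30 without 52X T4A replicate 2. The values of MIR92A1 moved least, from −0.63 to −0.43 over the 4 such fits.

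Next, the balance of the members inside each cluster was compared, which needs no scaling between libraries. For each gene the log2 ratio of its counts to the geometric mean of the other members was taken in every library. The differences of this ratio between 52X T4A and 52X WT ran from −0.23 for MIR19A to 0.16 for MIR92A1. With 52X WT replicate 2 left out they ran from −0.49 for MIR93 to 0.53 for MIR92A1. The first range is therefore no bound on how far the members of a cluster differed in their change. The libraries of the groups overlapped for 8 of the 9 ratios. The exception was MIR19A, at −3.19 and −3.29 in 52X T4A and −2.92 and −3.09 in 52X WT, whose difference of −0.23 exceeded the SD of 0.07 and 0.12 within the groups. The smallest p that 2 libraries against 2 allow in a two-sided exact permutation test is 0.333, which MIR19A had, and over the 9 ratios every Benjamini-Hochberg adjusted p was 1.0.

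In the other direction, the ratio of MIR92A1 moved more between replicates than between groups. It was 6.03 and 5.82 in 52X T4A, but 5.40 and 6.13 in 52X WT, and the difference of 0.16 turned to −0.20 without 52X WT replicate 1. MIR93 behaved alike in its cluster, at −2.12 and −2.05 in 52X T4A but −1.60 and −2.32 in 52X WT. For MIR106B the ratios were −0.60, −0.54, −0.79 and −0.54, with 52X WT replicate 1 below the other 3 libraries. As shares of cluster counts, MIR92A1 held 82.0% ± 2.03 of miR-17-92 in 52X T4A and 80.8% ± 5.48 in 52X WT, and MIR20A 11.1% ± 1.38 and 11.8% ± 3.28. The MIR92A1 and MIR19B1 counts in these ratios and shares cannot be assigned to chromosome 13 either. MIR25 held 74.7% ± 1.22 of miR-106b-25 in 52X T4A and 74.5% ± 3.52 in 52X WT. A share in a single library has a 95% Wilson interval of at most 0.174 percentage points to either side, which covers counting error alone and is far below the spread between libraries.

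**Figure D5:**
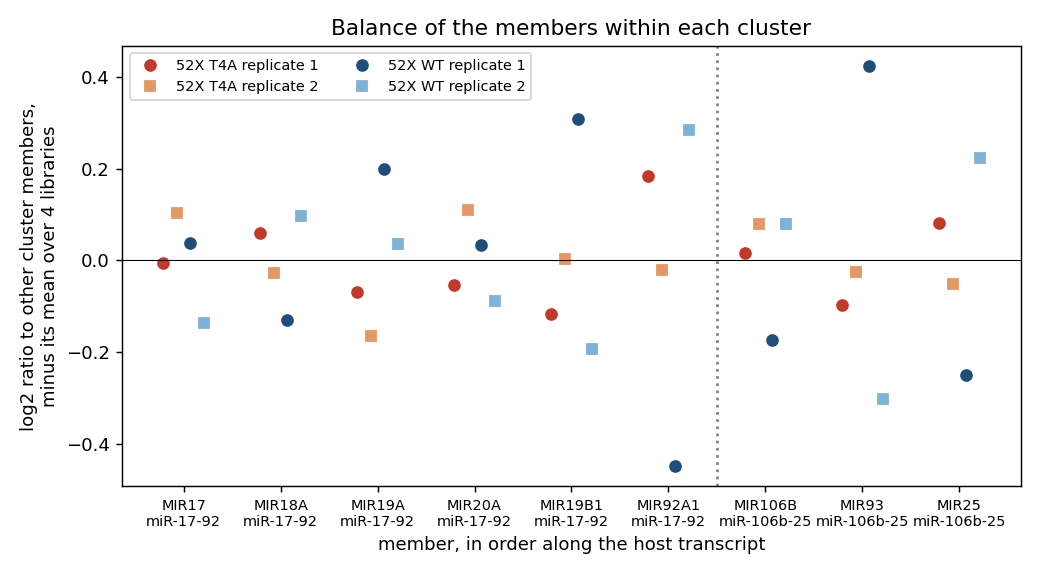
Log2 ratio of each gene to the geometric mean of the other members of its cluster, minus the mean ratio over the 4 libraries (y axis), for the genes in order along their host transcripts (x axis), 1 point per library. The 52X WT replicate 1 points lie farthest from 0 for all genes except MIR17 and MIR20A, and the groups separate for MIR19A alone.

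Other human miRNA genes with these 4 seeds were found in RefSeq by sequence. There were 12, all listed in the tables, of which 9 had enough counts to be tested and none was called (edgeR, smallest adjusted p 0.421). The 6 genes of miR-106a-363 were all below 0, with log2 fold changes from −0.76 for MIR19B2 to −0.48 for MIR363, but 5 of them are the close or exact copies described above. MIR363 is the exception, since its mature miRNA differs from miR-92a-3p at 12 of 22 positions. It was at 181 and 170.4 CPM in 52X T4A and at 225 and 263 CPM in 52X WT, at −0.48 ± 0.24 (SE; edgeR, adjusted p 0.467), and its groups did not overlap.

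Of the relatives outside the 3 clusters, MIR32 was at 41.6 and 25.5 CPM in 52X T4A and 47.2 and 59.1 CPM in 52X WT, at −0.67 ± 0.34 (SE; edgeR, adjusted p 0.467). MIR92B was at 114 and 166 CPM in 52X T4A and at 162 and 160.4 CPM in 52X WT, so that its groups overlapped (log2 fold change −0.20 ± 0.27, SE; edgeR, adjusted p 0.807). MIR519D rested on 3 to 33 counts, at 0.36 ± 0.72 (SE; edgeR, adjusted p 0.906), and MIR526B had 4 to 14 counts, too few to be tested. MIR367 and MIR4735 had 0 counts in all 4 libraries, which allows up to 3 counts in each. Relatives with the AUUGCAC seed thus covered every case from lower without overlap, through overlap, to not detected.

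The genes whose pattern over the 4 libraries was most like that of each cluster were sought among 296 other miRNA genes with a mean of at least 100 counts. Likeness was the mean absolute difference, over the 4 libraries, between the centred log2 CPM of a gene and the mean of the cluster members. Nearest to miR-17-92 were MIR5001, MIR210 and MIR660, at 0.03, 0.04 and 0.07, where its own members were at 0.06 to 0.20. Nearest to miR-106b-25 were MIR4326, MIR450A2 and MIR618, at 0.03, 0.05 and 0.05, where its members were at 0.06 to 0.14. With 4 libraries such nearness is a description of these libraries, since these nearest genes, at unrelated loci, came as near as the members themselves. The median of the 296 genes was farther than any member, at 0.34 for miR-17-92 and 0.27 for miR-106b-25. The members are part of the mean they were compared with, which brings them nearer to it.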

How the data were processed

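Total RNA from 4 samples was sequenced as 50 bp single-end reads. The authors deposited raw read counts per feature for each library, with no normalization, over small RNA features with hg38 positions. The submitters' processing notes name cutadapt 4.6, Bowtie2 2.3.5.1 and featureCounts 1.5.0; settings, annotation and the treatment of reads with several matches were not given in the sources used here. Totals ran from 16180790 to 27370127 counts, which makes counting error small for all 9 genes.

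Names came from GENCODE v44lift37 by identifier (5579 features) or from an identical RefSeq GRCh38.p14 position (899), with 584 left unnamed, and exons and introns from a match of the RefSeq sequence in GRCh37. Counts were filtered with filterByExpr (minimum count 10), scaled with TMM factors and tested with edgeR 4.0.16 in R 4.3.3, with Benjamini-Hochberg adjustment over 1480 features. The SE is the log2 fold change divided by the square root of F. Ratios were tested by exact permutation (SciPy 1.17.1). On simulated data the fit called 25.4% of tested features changed 2-fold and 91.8% of those changed 4-fold, with 5 and 3 false calls. Alternatives covered scaling, filter, DESeq2 1.42.0, a robust fit, a replicate block, summed copies and each library left out; summing all 5 pairs of copies and the overlap under other scalings were chosen after seeing the data. All 9 members were named by rule, with miR-106a-363, seed relatives of at least 10 counts and the 3 nearest genes per cluster; MIR526B, MIR367 and MIR4735 were named outside it. Members and lists were chosen with earlier results of these data known.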

Additional observations from a re-analysis of the deposited data

How the results depend on the processing

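The log2 fold changes of the 9 genes stayed below 0 under each of the 14 alternatives, and 122 values stayed on the same side of the threshold. With summed copies, genes that were not summed kept their counts and could hardly move. MIR25, for example, was at −0.4532 with the MIR19B and MIR92A copies summed, against −0.4531 in the main fit. The 4 that became called were MIR17, MIR19A, MIR20A and MIR19B1 without 52X WT replicate 2, and the cause was not tested. The number of members called was 0 in every other setting, and from 0 to 4 when a library was left out. The number of all features called was 2, and changed to 9 with library size alone, 0 with factors from miRNAs alone (143 at an unadjusted p under 0.05), 29 without a filter on low counts, 30 with DESeq2, 18 with the replicate block, and from 4 to 218 when a library was left out.

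The labels do not say that replicate numbers pair the libraries, and deviations of same-numbered libraries correlated at 0.0946 across features. With the replicate block no member was called (edgeR, smallest adjusted p 0.201). In that fit 8 members had an unadjusted p under 0.05, as had 185 of all 1480 features tested. Among the within-cluster ratio differences under an alternative, 13 values changed sign and 50 did not. Those that did not include the miR-106b-25 ratios with summed copies, which could not change because their counts were not altered. With the summed counts of the other members as reference the differences were −0.0365 for MIR17, −0.088 for MIR18A and −0.0804 for MIR20A. With each library left out in turn, the differences that changed sign in at least 1 case ran from −0.0812 to 0.1454 for MIR18A, −0.026 to 0.1366 for MIR20A, −0.3649 to 0.135 for MIR19B1, −0.2027 to 0.5313 for MIR92A1, −0.0318 to 0.2201 for MIR106B, −0.4851 to 0.2404 for MIR93 and −0.2086 to 0.265 for MIR25. The order of the levels kept 7 of 9 ranks without division by length, where MIR18A and MIR19A changed places.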
